A study of Homo sapiens with 16 samples.

Results

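HLA class I molecules carry peptides from inside the cell to its surface, and the genes described here encode parts of that route: the heavy chains HLA-B, HLA-C and HLA-E, their light chain B2M (beta-2 microglobulin), the peptide transporter subunits TAP1 and TAP2, the loading chaperone TAPBP (tapasin), and the immunoproteasome subunits PSMB8 and PSMB9. These 9 genes were taken by symbol from a deposited table of 23459 gene entries, and each matched 1 entry.

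The data were RNA-seq libraries of human myeloma cell lines, which are established lines of malignant plasma cells. In each background cells received a short hairpin RNA (shRNA) against CD28, CD86 or Gapdh, or the empty pLKO.1 vector, called Vec here. CD28 is a costimulatory receptor and CD86 one of its ligands. The labels name the Gapdh hairpin and the empty vector as controls. The backgrounds were KMS18, MM.1s, RPMI8226 overexpressing the anti-apoptotic protein Mcl1 (called the Mcl1 line here) and RPMI8226, with 1 library for each of the 16 combinations. Apart from the vector or hairpin, the KMS18, MM.1s and RPMI8226 cells carried no labelled alteration, and all 4 libraries of the Mcl1 line carried the overexpression. The Mcl1 line is 1 derived line, each other background is 1 line, and neither the sequence nor the number of the hairpins for a target is known here from the labels. Values over the 4 backgrounds count RPMI8226 and the Mcl1 line separately, although they are not independent.

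Cytosolic proteins are cut by the proteasome, whose catalytic subunits can be replaced by the interferon-induced immunoproteasome subunits PSMB8, PSMB9 and PSMB10. TAP1 and TAP2 form the transporter that moves the peptides into the endoplasmic reticulum, where tapasin, calreticulin (CALR) and PDIA3 help a heavy chain with B2M to bind one. The complex then goes to the surface, where CD8 T cells read HLA-B and HLA-C and natural killer cell receptors read HLA-E. Transcription of the heavy chain genes and B2M is driven by NLRC5 with the RFX and NF-Y factors at an SXY module, which contains a CRE-like box and a CCAAT box (Y box). Interferon-activated factors such as those of the IRF family also drive genes of this route.

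The depth was modest and even: 3914513 to 5900955 reads per library fell in genes, and within each background the CD28 shRNA library had the fewest. Under their own hairpin, the targeted transcripts were at 65.1% to 79.3% of Vec for CD28, 44.1% to 76.3% for CD86 and 10.7% to 53.0% for GAPDH over the 4 backgrounds. Of 7 plasma cell markers, 6 were above 1 FPKM (the authors' unit, fragments per kilobase of exon after scaling to library size) in all 16 libraries and SLAMF7 in 11, and the 7 summed to 614 to 1884 FPKM. The summed level of 4 T cell markers was 0 to 7.56 FPKM, with CD3D at 0 throughout. The summed levels of 4 myeloid and 4 stromal markers were at most 3.54 and 0.841 FPKM. As these are bulk samples, fewer cells expressing a gene and less RNA per cell cannot be told apart.

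The sequence just before the transcription start of these genes is where the factors named above are known to act, so 6 stretches are shown. They are the 150 bases before the RefSeq start on build GRCh38.p14, 5′ to 3′ on the gene's strand, with matched motif letters in capitals. The motifs were searched on both strands and are the Y box (CCAAT), the core of a CRE site (TGACG), the interferon-stimulated response element or ISRE (GAAA, any 2 bases, GAAA), the interferon-gamma-activated element GAS (TTCNNNGAA) and an NF-kB element (GGGANNNCC). The stretches lie at chr6:31357180-31357329 (minus strand) for HLA-B, chr6:31272093-31272242 (minus) for HLA-C, chr15:44711367-44711516 (plus) for B2M, chr6:33314079-33314228 (minus) for TAPBP, chr6:32853705-32853854 (minus) for the upstream start of TAP1 and chr6:32838740-32838889 (minus) for TAP2.
HLA-B: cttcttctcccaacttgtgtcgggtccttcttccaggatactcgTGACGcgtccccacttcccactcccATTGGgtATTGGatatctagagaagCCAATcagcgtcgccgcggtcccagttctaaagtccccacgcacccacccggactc
HLA-C: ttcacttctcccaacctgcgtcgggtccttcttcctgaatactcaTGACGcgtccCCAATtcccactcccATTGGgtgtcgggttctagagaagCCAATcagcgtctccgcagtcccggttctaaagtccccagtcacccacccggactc
B2M: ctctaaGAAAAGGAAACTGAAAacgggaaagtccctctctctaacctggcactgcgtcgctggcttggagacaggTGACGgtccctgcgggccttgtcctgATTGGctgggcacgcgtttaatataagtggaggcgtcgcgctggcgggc
TAPBP: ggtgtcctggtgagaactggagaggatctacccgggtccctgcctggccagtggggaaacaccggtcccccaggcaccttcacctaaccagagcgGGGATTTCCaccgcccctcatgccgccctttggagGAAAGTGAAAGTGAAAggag
TAP1: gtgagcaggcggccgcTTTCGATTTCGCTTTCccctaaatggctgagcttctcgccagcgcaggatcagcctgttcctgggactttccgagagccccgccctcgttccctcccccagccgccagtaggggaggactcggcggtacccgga
TAP2: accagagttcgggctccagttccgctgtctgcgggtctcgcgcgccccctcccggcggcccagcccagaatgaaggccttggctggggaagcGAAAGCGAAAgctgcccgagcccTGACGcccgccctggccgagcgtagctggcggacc
The first 3 stretches show a CRE site followed by a Y box. In HLA-B the site began at position -106 from the start and Y boxes at -81, -74 and -56. In HLA-C the site began at -105 and Y boxes within the stretch at -95, -80 and -56. B2M had the site at -75 and the Y box at -49, and in addition a pair of overlapping ISRE matches at -144 and -138. TAPBP and TAP1 show no Y box in these stretches but a pair of overlapping ISRE matches each, at -20 and -14 in TAPBP and at -134 and -128 in TAP1, and TAP2 had 1 ISRE match at -58.

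RefSeq windows of 300 bases were found for 8 of the 9 genes, with 10 windows in all because TAP1 and PSMB8 have a second start each. The ISRE letters were in 5 of the 10 windows, against 3.57% of 35116 human promoter windows of the same length. The CRE site was in 6 of 10 windows against 24.6% of all windows, the Y box in 5 against 34.6%, the NF-kB letters in 4 against 22.9% and the GAS letters in 2 against 7.66%. A letter match is a description of the sequence and no evidence of binding. Nor is the lack of a match evidence that an element is absent, since variants of these letters were not searched. Motifs that overlap each other were counted separately. The windows are not independent: those of HLA-B and HLA-C were 88.5% identical, and the upstream TAP1 window overlaps the PSMB9 window, since these genes run away from each other. Both members of the first pair are close paralogs, so reads may have been split between them. The labels state no strand setting. Reads of PSMB8-AS1, which shares exon bases with TAP1, PSMB8 and PSMB9, cannot be told apart from theirs. It was listed at 0.609 to 1.37 FPKM.

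B2M was the most abundant of the 9 transcripts in the deposited values, with a mean of 642 FPKM over the 16 libraries, against 33.1 for HLA-B, 12.97 for TAPBP and 3.77 for TAP1, the lowest. That distance rests in large part on the exon lengths by which the authors divided. For HLA-B the deposited exon length was 15564 bases, against 1586 bases in the GENCODE v29 protein-coding exons, a ratio of 9.81. The ratio was 5.54 to 14.5 for the 8 genes on chromosome 6, with the highest value for PSMB9, and 0.679 for B2M on chromosome 15. Long deposited lengths were common in that stretch of chromosome 6. Of 138 other genes between the outermost of the 8 genes, 89.1% had a ratio of at least 4, against 5.03% of 994 genes elsewhere on chromosome 6 and 1.32% of all 21968 genes with a GENCODE length.

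Recomputed with GENCODE lengths, as reads per kilobase scaled to the library total in the same way, B2M averaged 436 and HLA-B 325 over the 16 libraries. HLA-C averaged 102, HLA-E 85.3, TAPBP 71.9, PSMB9 55.2, PSMB8 47.9, TAP2 34.0 and TAP1 31.8 on the same scale. In this order only HLA-B and HLA-C did not overlap in their ranges over libraries, at 179 to 503 for HLA-B and 48.1 to 178 for HLA-C. All other neighbours overlapped. A length is the same in every library, so it does not enter a comparison of a gene with itself except through the pseudocount, and the FPKM as deposited are used below.

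**Figure D1:**
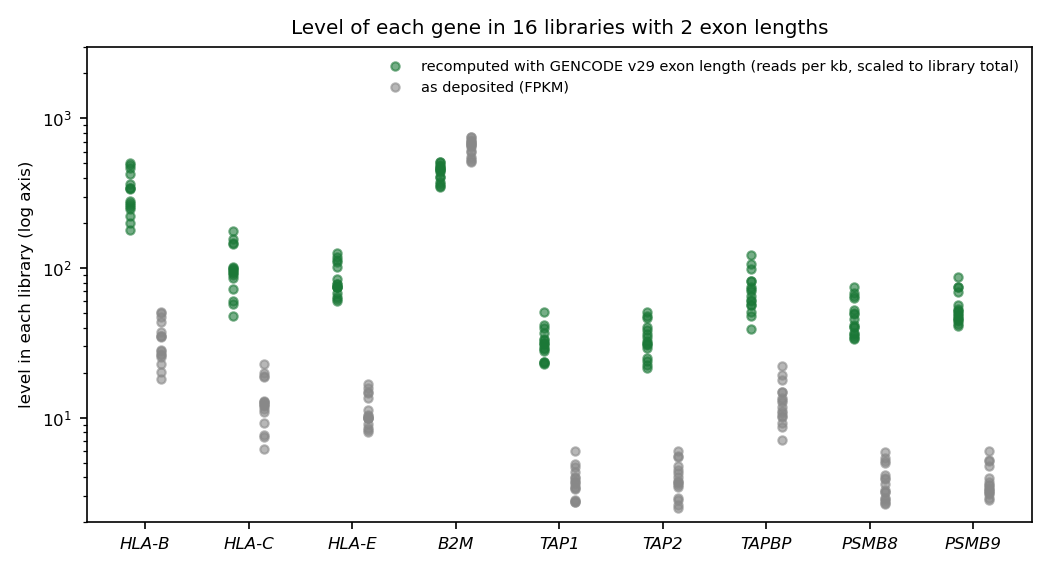
Level of each of the 9 genes in each of the 16 libraries (points) on a log axis, in green as reads per kilobase, scaled to the library total, with the GENCODE v29 exon length and in grey as the deposited FPKM. With the GENCODE length HLA-B (179 to 503) overlaps B2M (348 to 511), whereas the deposited values set them apart (18.3 to 51.3 against 513 to 753 FPKM).

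The heavy chains differed between backgrounds, with the means of HLA-B and HLA-C highest in KMS18 and lowest in MM.1s. HLA-B was at 43.6, 49.8, 51.3 and 47.3 FPKM in KMS18 (with CD28, CD86 and Gapdh shRNA and Vec, an order kept for all backgrounds here). The MM.1s libraries had 27.7, 18.3, 22.8 and 20.3 FPKM, those of the Mcl1 line 35.1, 37.2, 34.5 and 35.0 FPKM, and those of RPMI8226 25.4, 26.9, 26.1 and 28.4 FPKM. All KMS18 libraries were above all others, and all Mcl1 line libraries were above all RPMI8226 libraries. HLA-C followed the same order. It averaged 20.1 ± 1.87 FPKM in KMS18, 7.62 ± 1.28 in MM.1s, 12.7 ± 0.240 in the Mcl1 line and 11.6 ± 0.50 in RPMI8226 (SD, n = 4 libraries each). HLA-E, a nonclassical heavy chain, was also highest in KMS18 but lowest in RPMI8226, with means of 15.3 ± 1.30 FPKM in KMS18, 11.5 ± 2.22 in MM.1s, 10.2 ± 0.266 in the Mcl1 line and 8.50 ± 0.434 in RPMI8226.

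**Figure D2:**
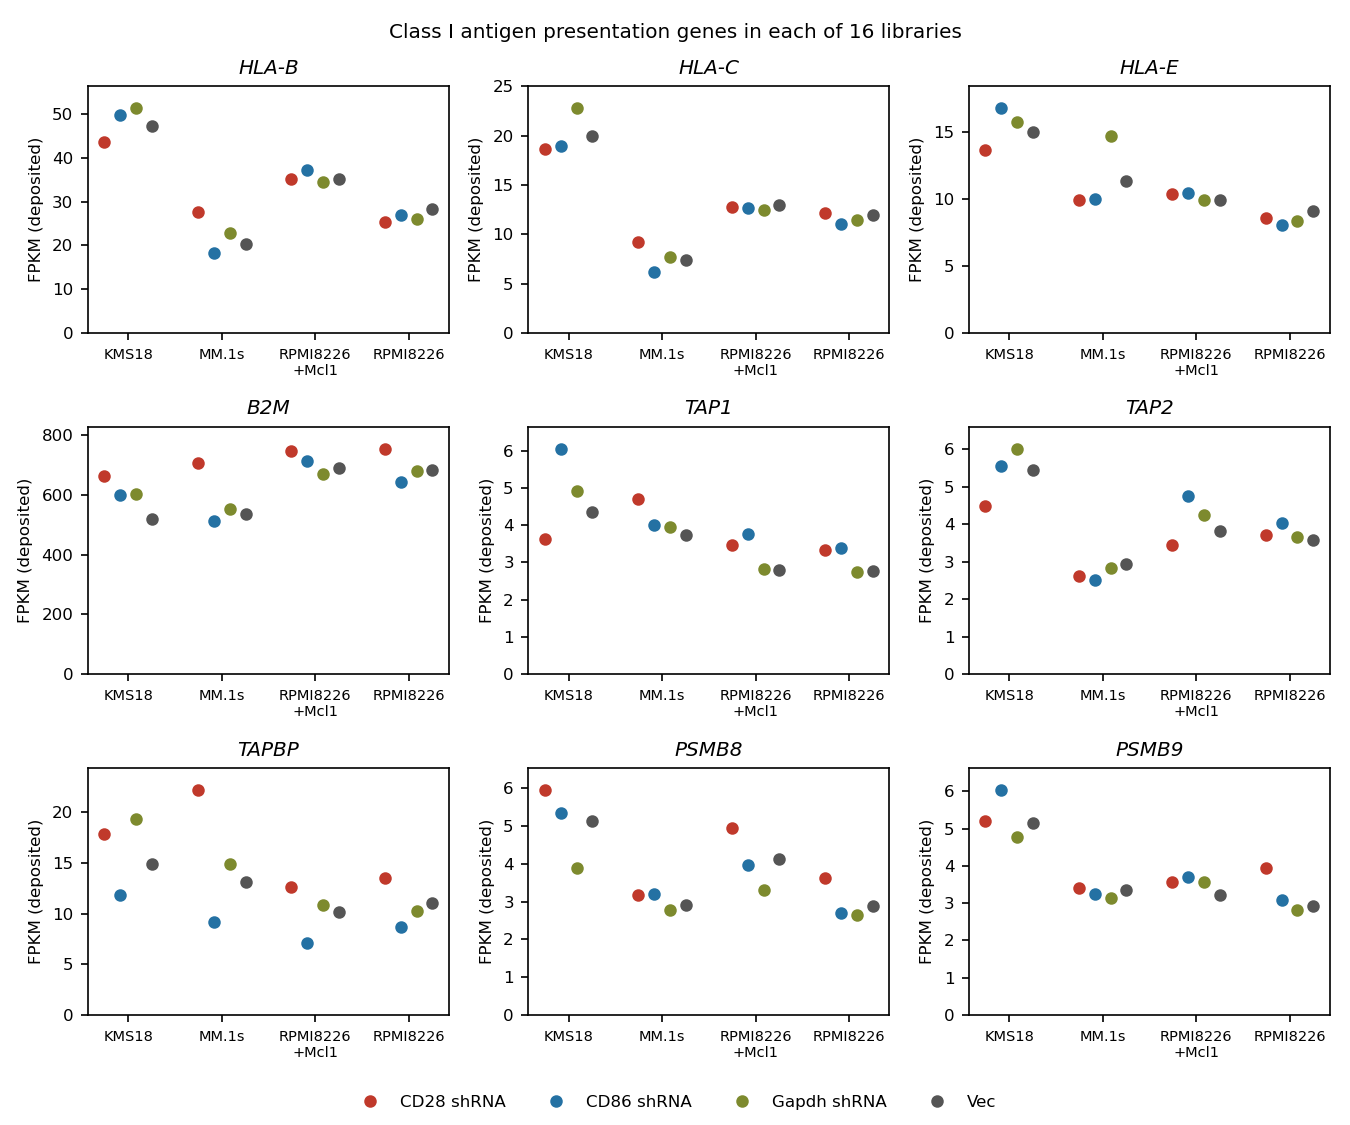
Deposited FPKM (y axis from 0, a separate scale for each gene) of the 9 genes in the 16 libraries, grouped by background on the x axis, with 1 point per library coloured by shRNA. HLA-B lies between 43.6 and 51.3 FPKM in KMS18 and between 18.3 and 37.2 FPKM elsewhere, and TAPBP is lowest with CD86 shRNA in every background.

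KMS18 against MM.1s showed higher levels of 6 of the 9 genes and lower levels of none (limma on log2(FPKM + 1), Benjamini-Hochberg adjusted p under 0.05, with a term for shRNA). Of all 11316 genes tested, 30.8% were higher and 34.5% lower between these lines. On this log2 scale the difference was 1.30 ± 0.10 (SE) for HLA-C, with an adjusted p of 8.7e-07 from limma. It was 1.09 ± 0.12 for HLA-B, 0.77 ± 0.11 for TAP2, 0.59 ± 0.11 for PSMB8, 0.55 ± 0.11 for PSMB9 and 0.39 ± 0.11 for HLA-E, the last with a limma adjusted p of 0.0093. B2M (0.05 ± 0.07), TAP1 (0.15 ± 0.13) and TAPBP (0.14 ± 0.12) did not pass. HLA-E lost its call without the CD86 shRNA libraries.

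KMS18 against RPMI8226 showed 8 of the 9 genes higher, against 35.2% of all genes, and 1 lower, against 35.1%. The differences were 0.82 for HLA-B, 0.77 for HLA-E, 0.74 for HLA-C, 0.61 for PSMB8, 0.59 for PSMB9, 0.51 for TAPBP, 0.49 for TAP1 and 0.42 for TAP2 on the log2 scale. Their SEs were 0.10 to 0.13. B2M ran the other way, at -0.21 ± 0.07 with a limma adjusted p of 0.0136. It averaged 597 ± 59.6 FPKM in KMS18 and 690 ± 45.7 FPKM in RPMI8226 (SD, n = 4 each), and its call was lost without the Vec libraries. The heavy chains, transporter, tapasin and immunoproteasome subunits were thus higher in KMS18 while the shared light chain was lower.

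MM.1s against RPMI8226 split the genes. HLA-E (0.38), TAPBP (0.37) and TAP1 (0.33) were higher in MM.1s, 3 of 9 against 35.9% of all genes. HLA-C (-0.56), TAP2 (-0.35) and B2M (-0.27) were lower, 3 of 9 against 33.2%. The transporter's subunits therefore differed in opposite directions. TAP1 averaged 4.10 ± 0.411 FPKM in MM.1s and 3.05 ± 0.359 FPKM in RPMI8226, and TAP2 averaged 2.72 ± 0.195 FPKM in MM.1s and 3.74 ± 0.197 FPKM in RPMI8226. HLA-B, at -0.27 ± 0.12, missed the threshold (limma adjusted p = 0.0596). Without the Gapdh shRNA libraries the calls of HLA-E, TAP1 and TAPBP were lost. TAP1 also lost its call without Vec, without a filter on low values and with median-of-ratios scaling, TAPBP without the CD28 shRNA libraries and TAP2 without the CD86 shRNA libraries.

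The Mcl1 line differed from its parent in fewer genes. HLA-B was higher by 0.40 ± 0.05 (limma adjusted p = 0.0012), PSMB8 by 0.36 ± 0.09 (0.0238) and HLA-E by 0.23 ± 0.07 (0.0414), 3 of 9 against 19.5% of 11024 genes tested. None was lower, against 14.9%, and TAPBP had the only estimate below 0 (-0.09 ± 0.08). HLA-B averaged 35.5 ± 1.21 FPKM in the Mcl1 line and 26.7 ± 1.30 FPKM in RPMI8226 (SD, n = 4 each), and it kept its call whichever pair of libraries was left out. HLA-E lost its call whichever pair was left out, without a filter and with median-of-ratios scaling. PSMB8 lost its call without the CD28 shRNA, CD86 shRNA or Vec pair and kept it without the Gapdh shRNA pair. The effect of Mcl1 and of deriving this single line cannot be told apart. For all comparisons of backgrounds, the p-values measure the spread left after the background and hairpin terms, pooled over the backgrounds fitted. Each background is 1 line, and its 4 libraries differ in hairpin or vector, so none repeats another. For the polymorphic HLA genes a difference in level and a difference in how well a line's alleles align cannot be told apart.

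**Figure D3:**
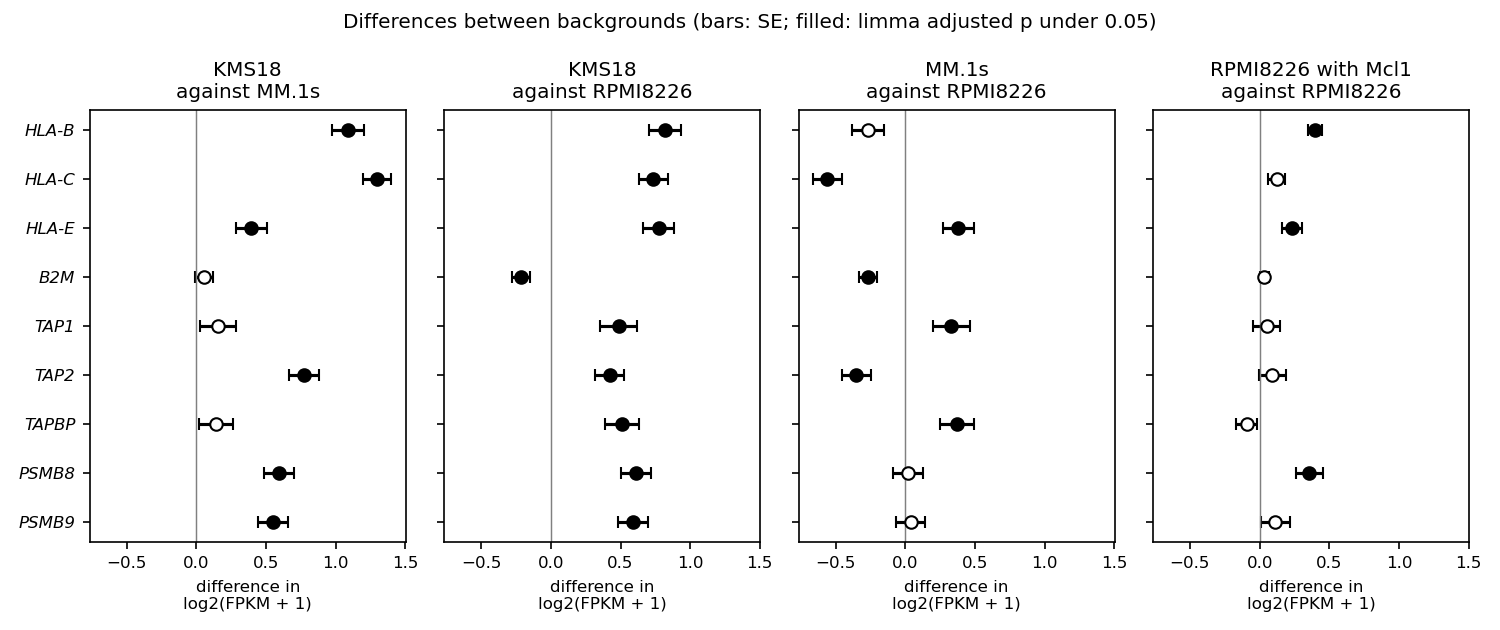
Differences between backgrounds in log2(FPKM + 1) for each gene (x axis; points are limma estimates, bars are SE, filled points passed an adjusted p of 0.05). Against RPMI8226, KMS18 has 8 filled points to the right of 0 and B2M to the left, and the Mcl1 line has 3 to the right.

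Genes around the 9 were read from lists of the same pathway. KMS18 against RPMI8226 had 5 of 7 loading chaperones and peptide-trimming enzymes higher and none lower, led by the trimming aminopeptidases ERAP1 (0.82) and ERAP2 (0.58) and the chaperones CANX (0.54) and TAPBPL (0.40, lost without the CD86 shRNA libraries). The constitutive catalytic subunits ran the other way. PSMB5 (-0.72), PSMB6 (-0.57) and PSMB7 (-0.49), which PSMB8, PSMB9 and PSMB10 replace, were all lower in KMS18. Against MM.1s, KMS18 also had 5 of 7 chaperones and trimming enzymes higher, led by BCAP31 (1.19), TAPBPL (0.99), CANX (0.82) and PDIA3 (0.49), and PSMB6 lower (-1.05). POMP, a proteasome assembly chaperone, was higher in KMS18 against both (0.80 against MM.1s, 0.60 against RPMI8226). In KMS18 against RPMI8226 the 4 other immunoproteasome and PA28 genes had 2 higher, POMP and PSMB10 (0.36), and 1 lower, the proteasome activator subunit PSME1 (-0.44). MM.1s against RPMI8226 had 2 of 7 chaperones and trimming enzymes higher, ERAP1 (0.55) and ERAP2 (0.36, lost without the CD28 shRNA or the Vec libraries), and 5 lower, led by BCAP31 (-0.87) and TAPBPL (-0.59). In the Mcl1 line against RPMI8226, TAPBPL (-0.44), CANX (-0.38) and PDIA3 (-0.24) were lower, and CALR was higher by 0.08, a call lost whichever pair of libraries was left out.

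Per length, with GENCODE exon lengths, the level of PSMB8 was 289 ± 85.0% of that of PSMB5 in KMS18, 146 ± 18.2% in MM.1s, 121 ± 17.6% in the Mcl1 line and 98.4 ± 14.7% in RPMI8226 (SD, n = 4 libraries each). PSMB9 was at 106 ± 16.6% of PSMB6 in KMS18, 31.5 ± 2.58% in MM.1s, 41.3 ± 3.75% in the Mcl1 line and 42.9 ± 7.37% in RPMI8226. The KMS18 libraries were above all others in both ratios. PSMB10 against PSMB7 gave a different order, with 110 ± 9.29% in KMS18 and 100.1 ± 10.7% in MM.1s, and 52.6 ± 5.23% in the Mcl1 line and 59.7 ± 3.99% in RPMI8226.

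The transcriptional regulators did not move as a block. NLRC5, the class I transactivator, was at 5.12 ± 1.30 FPKM in KMS18, 1.64 ± 0.123 in MM.1s, 6.52 ± 0.693 in the Mcl1 line and 5.94 ± 0.597 in RPMI8226. NLRC5 was lowest in MM.1s, where the means of HLA-B and HLA-C were also lowest. Its difference was 1.19 in KMS18 against MM.1s and -1.39 in MM.1s against RPMI8226. In KMS18 against RPMI8226 it was -0.20 ± 0.14 (limma adjusted p = 0.234). The part of NLRC5 in the HLA-B and HLA-C levels was not tested. IRF1, an interferon-induced activator of these genes, showed another order, with 12.7 ± 2.94 FPKM in KMS18, 25.2 ± 1.86 in MM.1s, 7.67 ± 1.46 in the Mcl1 line and 12.2 ± 1.26 in RPMI8226. In KMS18 against MM.1s, 3 of 13 tested regulators were higher and 4 lower, with STAT2 (-1.91) furthest. Against RPMI8226, KMS18 had 5 higher, led by NFKB1 (1.28), RFX5 (0.83) and RFXAP (0.81), and 4 lower, led by STAT2 (-0.96). The Mcl1 line against RPMI8226 had 1 of 13 higher, NFKB1 (0.53), and 3 lower, IRF1 (-0.62), STAT2 (-0.61) and NFYC (-0.36). Of 7 interferon receptors and kinases, KMS18 against RPMI8226 had 4 higher, led by the kinase JAK2 (1.34) and the receptor chain IFNAR1 (0.54), and 3 lower, led by the interferon-gamma receptor chains IFNGR2 (-0.88) and IFNGR1 (-0.78).

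Other interferon-induced genes, which encode antiviral proteins outside antigen presentation, ran opposite to the heavy chains in 2 of these comparisons. In KMS18 against RPMI8226, 9 of 12 tested were lower and 1, BST2 (0.75), was higher, with a median of -1.42 on the log2 scale against 0.01 over all genes. IFI6 (-4.70), IFITM1 (-3.33), MX1 (-2.72) and IFIT3 (-1.95) differed most, and IFI6 averaged 2.30 ± 1.22 FPKM in KMS18 and 84.7 ± 37.5 FPKM in RPMI8226. In the Mcl1 line against RPMI8226, 9 of 13 were lower, among them IFI6 (-1.55), OAS2 (-1.29) and IFI27 (-1.25, lost without the Gapdh shRNA or the Vec pair), and IFITM1 was higher (1.49). In MM.1s against RPMI8226, 6 of 12 were lower, led by IFI6 (-3.19) and MX1 (-2.82), and none was higher. In KMS18 against MM.1s, 4 of 12 were lower, with IFI6 at -1.51, and 2 were higher, with ISG15 at 1.27. The nonclassical heavy chain HLA-F was higher in KMS18 against MM.1s (1.12) and against RPMI8226 (1.68), at 2.83 ± 0.188 FPKM in KMS18, 0.772 ± 0.189 in MM.1s and 0.199 ± 0.0945 in RPMI8226.

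**Figure D4:**
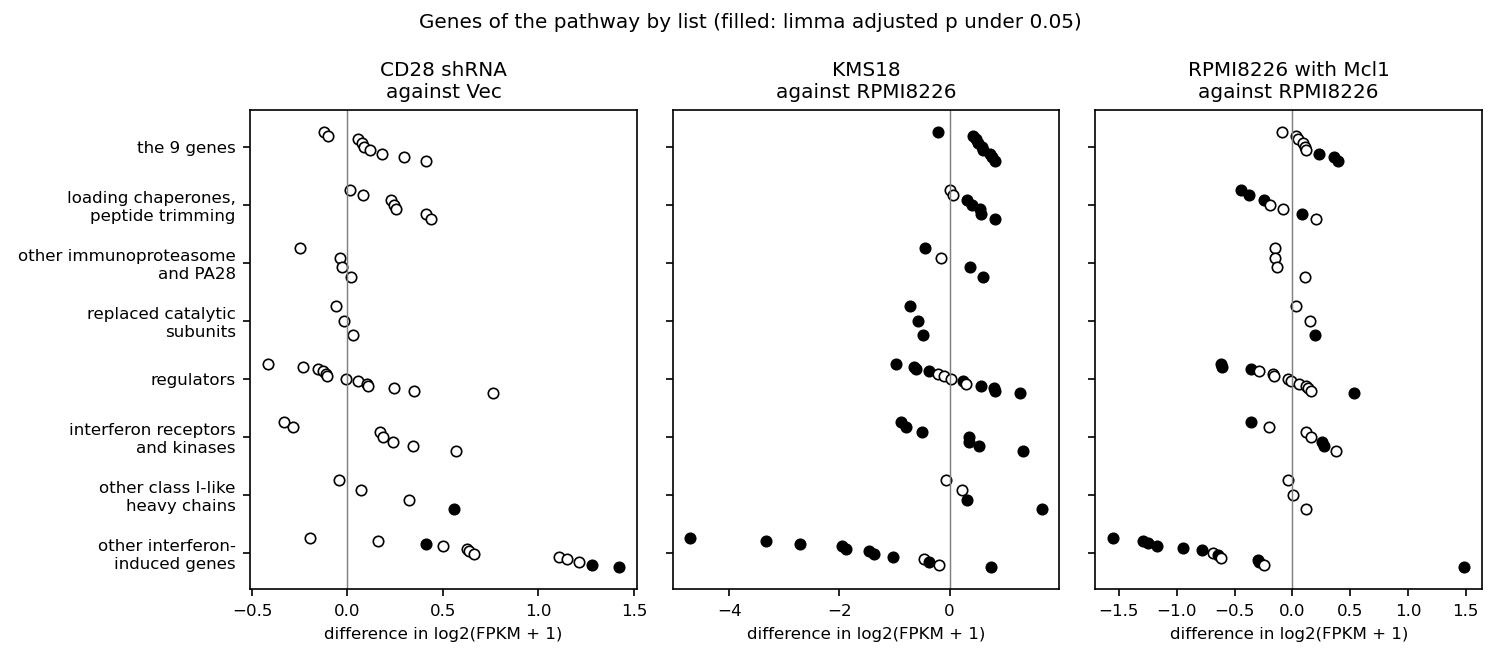
Differences in log2(FPKM + 1) (x axis) of the 9 genes and of 7 lists of related genes (y axis), 1 point per tested gene, filled where the limma adjusted p was under 0.05, in 3 comparisons. In KMS18 against RPMI8226 the 9 genes lie to the right of 0 except B2M and the other interferon-induced genes lie to the left except BST2, and under CD28 shRNA the interferon-induced genes reach 1.42.

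CD28 shRNA was compared with Vec to ask what lowering the receptor's transcript does, and it left all 9 genes short of the threshold. TAPBP and B2M were nearest. Limma over the 12 libraries of KMS18, MM.1s and RPMI8226, with a term for line, called 0 of the 9, against 2.83% of 11316 genes. An unadjusted limma p under 0.05 was found for 2 of the 9, against 2240 of the 11316 genes. Voom on recovered reads called 2 of the 9, against 580 of the 11316. TAPBP was at 17.9 FPKM in KMS18, 22.2 in MM.1s, 12.7 in the Mcl1 line and 13.5 in RPMI8226 with CD28 shRNA, against 14.9, 13.1, 10.2 and 11.0 FPKM with Vec. It was higher with CD28 shRNA than with Vec in each background, with MM.1s furthest. With Gapdh shRNA, the other control, it was at 19.3, 14.9, 10.8 and 10.3 FPKM in the same order. That was above the CD28 shRNA library in KMS18 and below it in MM.1s, the Mcl1 line and RPMI8226. The estimate was 0.41 ± 0.14 (limma adjusted p = 0.144). The authors' deposited table, from a likelihood ratio test and not limma, gave 0.46 with a false discovery rate of 0.0152. Without MM.1s the estimate was 0.26.

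B2M was at 665 FPKM in KMS18, 706 in MM.1s, 748 in the Mcl1 line and 753 in RPMI8226 with CD28 shRNA, against 519, 536, 691 and 684 FPKM with Vec. The values with CD28 shRNA were 119 ± 12.03% of Vec (SD, n = 4 backgrounds). The estimate was 0.30 ± 0.08 (limma adjusted p = 0.065), and the authors' deposited table gave 0.31 with a false discovery rate of 0.0945. With the Mcl1 line added, both passed, B2M at 0.25 (limma adjusted p = 0.0234) and TAPBP at 0.38 (0.0431). B2M, PSMB8, PSMB9 and TAPBP were higher in all 4 backgrounds, 4 of 9 genes against 13.6% of 11349 genes, and none was lower in all 4, against 16.6%. This count takes any difference, however small. PSMB9 was at 100.9% of Vec in KMS18 and 101.0% in MM.1s, against 110% in the Mcl1 line and 135% in RPMI8226. HLA-B, HLA-C and TAP1 had estimates of 0.05, 0.07 and 0.09, and HLA-E and TAP2 of -0.12 and -0.10, each with an SE of 0.12 to 0.15.

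Among related genes, IFI6 (1.42), IFIT3 (1.28) and BST2 (0.41) rose with CD28 shRNA, 3 of 12 tested interferon-induced genes, with limma adjusted p-values of 0.036, 0.0477 and 0.0249. The median over the 12 was 0.65 against -0.003 over all genes, and 11 had estimates above 0. The class I-like molecule MR1, which presents vitamin B metabolites, rose by 0.56 (limma adjusted p = 0.0352). IFI6 was at 3.51 FPKM in KMS18, 17.6 in MM.1s, 34.2 in the Mcl1 line and 139.97 in RPMI8226 with CD28 shRNA, against 0.704, 3.68, 29.3 and 76.0 FPKM with Vec. All 7 chaperones and trimming enzymes (median 0.25) had estimates above 0 without passing, and NLRC5 was at 0.10 ± 0.17. IFI6, IFIT3, BST2 and MR1 lost their calls without a filter on low values. BST2, IFIT3 and MR1 also lost them whichever line was left out, except that IFIT3 was below the filter without RPMI8226, and IFI6 kept its call only without RPMI8226. In KMS18 and MM.1s the libraries with CD28 shRNA also had the highest summed T cell markers, at 7.56 and 4.26 FPKM against 2.38 and 0.707 FPKM with Vec. Only 1 of the 4 markers, CD3E at up to 7.21 FPKM, was above 1 FPKM in any library. Of the 7 plasma cell markers, 4 were lower with CD28 shRNA than with Vec in all 4 backgrounds, and 0 were higher in all 4. Their sum was at 88.9% to 100.4% of Vec. The libraries with CD28 shRNA were also the shallowest of their backgrounds. The part of the markers or of depth in these values was not tested.

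CD86 shRNA against Vec also left all 9 genes short of the threshold, against 0.627% of all genes called. TAPBP had the smallest p of the 9 and was below Vec. It had 11.8 FPKM in KMS18, 9.22 in MM.1s, 7.10 in the Mcl1 line and 8.65 in RPMI8226 with CD86 shRNA, against 14.9, 13.1, 10.2 and 11.0 FPKM with Vec. That was 74.4 ± 5.11% of Vec (SD, n = 4 backgrounds). The summed plasma cell markers were lowest with CD86 shRNA in each background too, at 614 to 1270 FPKM with CD86 shRNA against 840 to 1681 FPKM with Vec, or 68.0% to 75.8% of Vec. Of the 7 markers, 5 were lower than with Vec in all 4 backgrounds and none was higher in all 4, and the part of this in the TAPBP values was not tested. Its estimate was -0.37 ± 0.14 (limma adjusted p = 0.311), and the authors' deposited table gave -0.41 with a false discovery rate of 0.0689. Of the 9 genes 1 had an unadjusted limma p under 0.05, against 1453 of 11316 genes, and voom called 0, against 229 of all genes. TAP1 was higher in all 4 backgrounds, 1 of 9 genes against 13.5%, at 126 ± 14.2% of Vec with an estimate of 0.23 ± 0.15 (limma adjusted p = 0.557). HLA-C and TAPBP were lower in all 4, 2 of 9 against 11.5%. B2M was at 0.02 ± 0.08 and PSMB8 at 0.03 ± 0.12. None of the related genes in the 7 lists passed with CD86 shRNA, and the 7 chaperones and trimming enzymes had a median of -0.26.

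Gapdh shRNA against Vec gave 0 calls among the 9 and 0% among all genes, with limma adjusted p-values of 0.9999 for each of the 9. None of the 9 had an unadjusted limma p under 0.05, against 402 of 11316 genes. Voom called none of the 9 and 0 of all genes. The estimates ran between -0.16 for PSMB8 and 0.14 for TAPBP. PSMB8 was lower in all 4 backgrounds, 1 of 9 against 9.15% of genes, and none was higher in all 4, against 7.36%. TAPBP was at 93.1% to 130% of Vec with Gapdh shRNA, at 120% to 169% with CD28 shRNA and at 69.7% to 79.3% with CD86 shRNA. These comparisons share their Vec libraries.

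Set against each other, CD86 shRNA and CD28 shRNA gave the difference that passed the test, in TAPBP and B2M, 2 of 9 genes against 9.51% of all genes. TAPBP was lower with CD86 shRNA, with a difference of -0.77 ± 0.14 on the log2 scale (limma adjusted p = 0.0094), and at 57.0 ± 11.2% of its level with CD28 shRNA over the 4 backgrounds. All 4 libraries with CD86 shRNA, at 7.10 to 11.8 FPKM, were below all 4 with CD28 shRNA, at 12.7 to 22.2 FPKM. The authors' deposited table gave -0.87 with a false discovery rate of 1.03e-08. B2M was lower, with a difference of -0.28 ± 0.08 (limma adjusted p = 0.0458), with 600.2 FPKM in KMS18, 513 in MM.1s, 716 in the Mcl1 line and 643 in RPMI8226 with CD86 shRNA, and 86.0 ± 9.83% of the level with CD28 shRNA. TAPBP and B2M were also the genes lower in all 4 backgrounds, 2 of 9 against 14.6%, and none was higher in all 4, against 19.4%. The summed plasma cell markers with CD86 shRNA were at 75.3% to 79.2% of those with CD28 shRNA. Of the 7 markers, 3 were lower in all 4 backgrounds and 0 were higher in all 4. IRF4 was at 121%, 107% and 123% in MM.1s, the Mcl1 line and RPMI8226, and at 76.7% in KMS18. PRDM1 was at 147%, 113% and 109% in MM.1s, the Mcl1 line and RPMI8226, and at 60.2% in KMS18. The part of the markers in the TAPBP and B2M differences was not tested. HLA-B did not pass, and its difference was -0.58 in MM.1s, against 0.08 to 0.19 in the other backgrounds.

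Of the 7 chaperones and trimming enzymes, 4 were also lower with CD86 shRNA than with CD28 shRNA: ERAP1 (-0.82), CALR (-0.56), PDIA3 (-0.44) and BCAP31 (-0.33). All 7 had estimates below 0, with a median of -0.33 against 0.03 over all genes. CALR was at 532 FPKM in KMS18, 395 in MM.1s, 601 in the Mcl1 line and 572 in RPMI8226 with CD86 shRNA, against 795, 668, 801 and 733 FPKM with CD28 shRNA. With Vec it was at 636, 529, 699 and 684 FPKM, between the others in each background. Of the 12 interferon-induced genes 4 were lower as well, IFIT1 (-1.43), MX1 (-1.35), IFIT3 (-1.21) and BST2 (-0.47), as was the interferon-gamma receptor chain IFNGR2 (-0.59). NFYB, an NF-Y subunit, was higher (0.67). Without MM.1s or without KMS18 the calls of TAPBP were lost (limma adjusted p = 0.104 and 0.0528), as were those of ERAP1, BST2 and NFYB, whereas B2M, PDIA3, BCAP31, IFIT3 and IFNGR2 lost theirs in every fit that left out a line and tested them. B2M also lost its call with a pseudocount of 0.1 and without a filter on low values. IFIT1 lost its call without MM.1s, MX1 without MM.1s or RPMI8226 and CALR without KMS18.

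**Figure D5:**
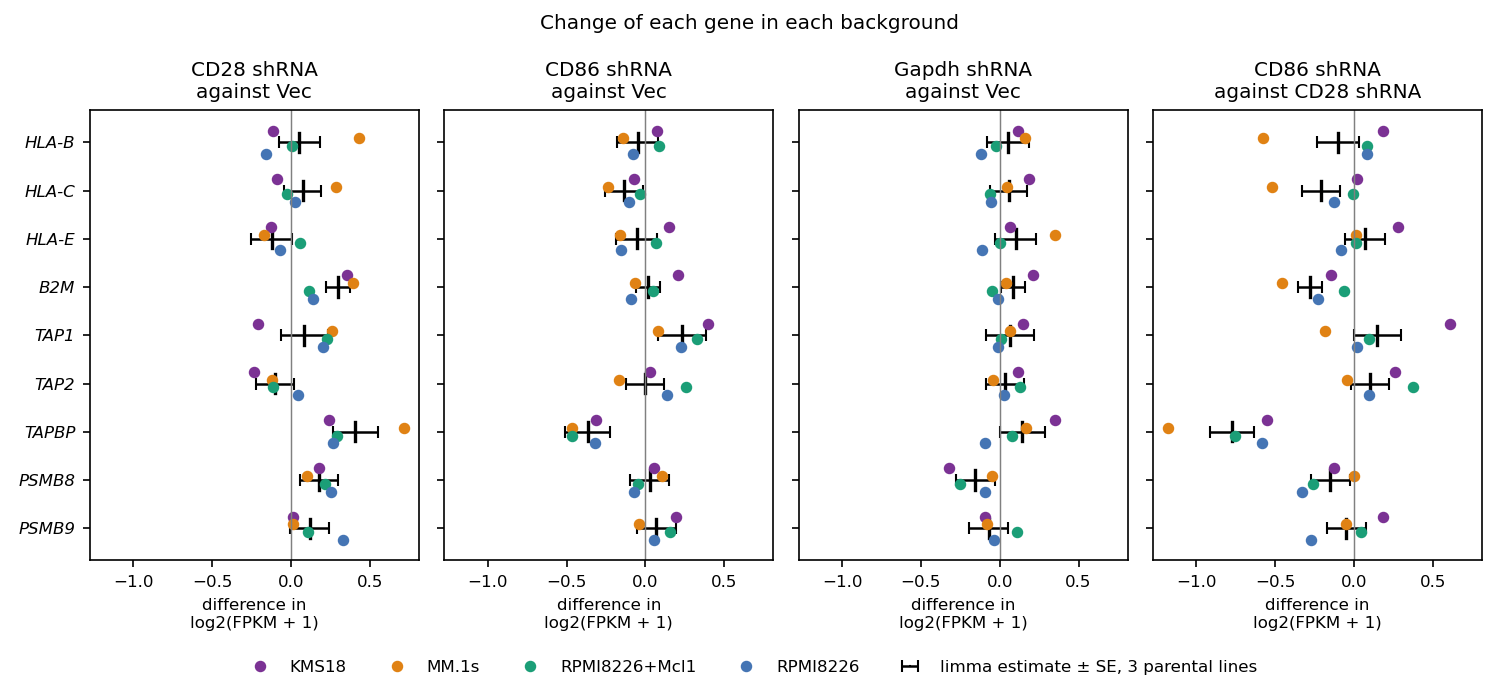
Difference in log2(FPKM + 1) (x axis) of each gene (y axis) in each background (coloured points) and the limma estimate with its SE over the 3 parental lines (black), for 4 comparisons. TAPBP lies right of 0 in all backgrounds with CD28 shRNA and left of 0 with CD86 shRNA, and its difference between the hairpins is -0.77.

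The Mcl1 line did not depart detectably from the other lines in its response to any hairpin. The difference between its response and the mean response of KMS18, MM.1s and RPMI8226 gave 0 calls among the 9 genes by limma for CD28, CD86 and Gapdh shRNA, with none at an unadjusted p under 0.05 and none by voom. Of all genes, 0.00881%, 0% and 0% passed. With 1 library per hairpin in the Mcl1 line the SEs were 0.15 to 0.30, so that differences of that order were not detectable. For TAPBP the differences were -0.12, -0.10 and -0.07 for CD28, CD86 and Gapdh shRNA.

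Within backgrounds, the 9 genes did not vary as 1 unit. HLA-B and HLA-C went together across the 16 libraries once each background's mean was removed (Pearson r = 0.84), and across libraries as they stand (0.96). HLA-C and TAPBP had r = 0.78, B2M and TAPBP 0.69, PSMB8 and PSMB9 0.55, and TAP2 and PSMB8 -0.68. These values describe points that share lines, hairpins and depth, and the paralogs may share reads. The genes outside the 9 whose centred values were most like the mean of the 9 were CXCL10 (r = 0.91), UBAC2 (0.91), TNFRSF10B (0.91), ITPR3 (0.90) and EMP3 (0.89), of 11340 ranked. CXCL10, an interferon-induced chemokine, was at 2.79 FPKM in KMS18, 74.4 in MM.1s, 48.2 in the Mcl1 line and 15.5 in RPMI8226 with CD28 shRNA, against 2.24, 10.7, 19.5 and 5.73 FPKM with Vec.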

How the data were processed

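Total RNA (Qiagen RNeasy) was made into Illumina TruSeq mRNA libraries, per the labels' protocols. The authors deposited FPKM and exon lengths per gene, with log2 fold changes, likelihood ratio scores, p-values and adjusted p-values for each of the CD28 and CD86 hairpins against Vec and against each other, per the file headers. The deposited log2 fold changes are of the second-named over the first-named group of a header, which was checked against the FPKM. The authors' likelihood ratio tests differ from limma, and the headers do not state the libraries or model terms used. Listed without a role, per the submitters' processing notes, are the builds hg19, GRCh37 and mm9 and the tools edgeR 3.12.1, R 3.2.2, Picard and TopHat2 2.0.13. No column of the table was left unmatched to the labels.

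FPKM times exon length gave whole reads for 100% of values (tolerance 0.02 of a read). Library totals were 4690942 to 7172402 reads, and counting error is larger for PSMB9 (221 to 453 reads per library) than for B2M (4931 to 7917). Tests used limma 3.58.1 in R 4.3.3 (eBayes with trend, two-sided) on log2(FPKM + 1) where a gene's mean reached 1 FPKM, which understates changes of low genes. All p-values were adjusted by Benjamini-Hochberg over all genes tested, with a threshold of 0.05. Hairpins were compared in 12 libraries of KMS18, MM.1s and RPMI8226 with line as a block, since each line received each hairpin once (6 residual degrees of freedom). Backgrounds were compared with hairpin as a block, the Mcl1 line with its parent over 8 libraries (3 residual degrees of freedom). No label says that libraries came from separate cultures, so p-values measure the spread between these libraries and lines and may be technical. The code was tested on simulated data.

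The 9 genes, the 7 lists, the tests and the rule for naming genes (up to 4 per list past the threshold, largest first, NLRC5, IRF1 and genes shown for contrast being named beyond it, and 1 listed gene not reported here) were chosen with earlier results of these data known. Promoter windows are from RefSeq (GRCh38.p14), and exon lengths for comparison from GENCODE v29 on GRCh38, matched by symbol for 93.6% of gene entries. Alternatives were another pseudocount (0.1), no filter, median-of-ratios scaling, voom on recovered reads, GENCODE lengths (chosen after seeing the data), no block, all 4 backgrounds and leaving out each line or hairpin. For CD28 and CD86 shRNA the mean of Vec and Gapdh shRNA was also used as the control.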

Additional observations from a re-analysis of the deposited data

Results flagged for a closer look

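In 2 of 63 sets of 4 values, 1 value stood apart from the others by more than Dixon's 95% critical value, and chance alone gives about 1 in 20 such sets. With CD28 shRNA against Vec, TAPBP differed by 0.72 in MM.1s on the log2(FPKM + 1) scale, above the other backgrounds, where it differed by 0.24 to 0.29. With CD28 shRNA against Vec, TAP1 differed by -0.21 in KMS18, whereas it was higher by 0.21 to 0.26 in MM.1s, the Mcl1 line and RPMI8226. In that KMS18 library TAP1 was at 3.61 FPKM against 4.35 FPKM with Vec. Each of these values comes from 1 library with the hairpin and 1 with Vec.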

How the results depend on the processing

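Of 873 recomputed differences of the 9 genes, 817 either kept a call and its sign, or stayed without a call and moved by at most 1 SE. For those that kept a call, the size of the move was not limited. A further 33 lost and 12 gained a call, 11 moved by more than 1 SE without a call, and no called difference changed sign. With CD28 shRNA against Vec the number of the 9 genes called was 2 with voom and 2 with all 4 backgrounds, instead of 0. The counts over all genes were then 580 and 1036, instead of 320. Against the mean of Vec and Gapdh shRNA, 0 of the 9 were called with CD28 shRNA and 0 with CD86 shRNA, beside 583 and 205 of all genes. With CD86 against CD28 shRNA the number of the 9 was 1 with a pseudocount of 0.1, 1 without a filter, 0 without the replicate block for line, and 0 to 1 when a line was left out, instead of 2. The first 3 of these settings called 959, 605 and 0 of all genes, instead of 1076. In MM.1s against RPMI8226 the number was 3 to 6 of the 9 when a hairpin's libraries were left out, instead of 6. All genes called were then 6988 to 7399, instead of 7825. In the Mcl1 line against RPMI8226 the number of the 9 was 5 with voom, 1 without the replicate block for hairpin and 1 to 2 when a hairpin's libraries were left out, instead of 3. These settings called 4803, 2459 and 2750 to 3207 of all genes, instead of 3793. Dropping the block, which comes from the design, ended the calls of TAPBP and B2M (CD86 against CD28 shRNA, and KMS18 against RPMI8226), TAPBP (MM.1s against RPMI8226) and HLA-E and PSMB8 (Mcl1 line). Fits without a line have fewer residual degrees of freedom, and the number of all genes called with CD86 against CD28 shRNA was then 137 to 525 instead of 1076. Without a filter, IFI6, IFIT3, BST2 and MR1 with CD28 shRNA, and IFIT1, MX1, IFIT3, IFNGR2, NFYB and PDIA3 with CD86 against CD28 shRNA, lost their calls, and voom did not call IFI6 with CD28 shRNA; the cause was not tested. HLA-B in MM.1s against RPMI8226 passed with median-of-ratios scaling, voom and GENCODE lengths, and HLA-C in the Mcl1 line with voom and GENCODE lengths. At 221 to 453 reads per library, PSMB9 has the least depth.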
